A study of Caenorhabditis elegans with 2 samples.

Results

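The genes lin-59, set-16 and bet-2 are 3 chromatin regulator genes of the nematode Caenorhabditis elegans. They were selected on measured values: each has a reproducible UNC-62 ChIP-seq region at or near it, and they are 3 of the 19973 nuclear protein-coding genes annotated. Their regions are 3 of the 95 in the reproducible list, so that the presence and the strength of these regions are descriptions and carry no test. ChIP-seq pulls down DNA bound by a protein with an antibody and sequences it. UNC-62, the protein that the ChIP-seq is labelled as against, is a Meis-class homeodomain protein and a cofactor of Hox proteins. The samples were 2 biological replicates of whole animals in 1 group, of strain OP600. Their sex is given as males and females pooled. The strain carries the unc119(ed3) allele and the transgene wgIs600, which holds unc-62 tagged with TY1, EGFP and FLAG together with a rescuing unc119. It is a single transgenic line, the tagged protein is made from a transgene, and signal from whole animals cannot be assigned to a tissue. The stage is labelled dauer in 1 field and D4 worms in another. The lin-59 gene lies at chrI:3713449-3721157 on the minus strand (ce11), set-16 at chrIII:13643916-13656637 on the plus strand and bet-2 at chrX:10569273-10575725 on the plus strand.

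Chromatin regulators of the trithorax type keep genes active by marking histones, and were first known in flies as factors that maintain Hox gene expression. The lin-59 product is a SET domain protein related to fly Ash1, which methylates histone H3 at lysine 36, and worm lin-59 is needed to maintain Hox gene expression. The set-16 product is the worm relative of mammalian MLL3 and MLL4, which methylate histone H3 at lysine 4 in a complex with the demethylase UTX. The bet-2 product belongs to the BET family, whose bromodomains bind acetylated lysines of histones.

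The sequences under the reproducible summits of set-16 and bet-2 are shown because they hold a run of letters that all 3 genes share. They are the 201 bases from 100 bp before to 100 bp after the summit of each region, the base of highest signal, read 5′ to 3′ on the plus strand of the RefSeq WBcel235 sequence (ce11). Capitals mark every match to AGAGAC on either strand or to the longer AGAGAGAC, which contains it. The windows are chrIII:13643690-13643890 and chrX:10568607-10568807, and neither holds an annotated exon.
set-16: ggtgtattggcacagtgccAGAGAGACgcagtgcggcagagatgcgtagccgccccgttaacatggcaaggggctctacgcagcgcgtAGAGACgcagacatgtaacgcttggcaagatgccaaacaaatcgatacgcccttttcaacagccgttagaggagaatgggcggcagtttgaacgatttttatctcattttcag
bet-2: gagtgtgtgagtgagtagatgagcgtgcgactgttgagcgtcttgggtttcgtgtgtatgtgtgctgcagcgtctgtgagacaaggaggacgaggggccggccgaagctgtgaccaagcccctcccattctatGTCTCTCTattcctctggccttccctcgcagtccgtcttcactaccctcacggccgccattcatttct

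The regions came in 4 lists, each with the authors' own signal value per region. The lists of replicate 1 and replicate 2 held 30000 regions each, background included. The list of both replicates together held 2155 regions, background included as well, and is called pooled here. The reproducible list is the part of it that the authors kept by irreproducible discovery rate (IDR). A pooled summit outside the reproducible list thus does not by itself show binding. Of the 95 reproducible regions, 76 were nuclear. The others were on mitochondrial DNA and included the highest signal of the list, 1084. Pooled ranks count these mitochondrial regions too. Rank 1 is the highest signal of a list, and signals were compared only within a list. The strongest nuclear region lay in unc-62 itself, with a pooled signal of 82.4 at rank 18. The transgene holds unc-62 too, so its signal cannot be told apart from that of the gene's own locus. The IDR threshold fell between pooled rank 95, near F11E6.21 with a signal of 31.2, and rank 96, near C42D8.14 with a signal of 31.1. Read totals are not in the files, so the depth behind these values is unknown. The same −log10 q of 0.820, or q = 0.151, was given to all reproducible regions in the pooled list. It is the lowest q of that list, and rank 96 outside the reproducible list had it too. The lowest q was 0.0424 in replicate 1, which the regions of all 3 genes had, and 0.0118 in replicate 2. These lowest q values are thus limits of a list and do not set 1 region apart. In replicate 2 only lin-59 was at the limit, with q = 0.0627 at bet-2 and 0.209 at set-16.

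The reproducible regions of the 3 genes stood next to each other in the pooled ranking. The pooled signal was 38.7 at set-16 (rank 53), 37.8 at lin-59 (rank 54) and 37.8 at bet-2 (rank 55). These values were 2.19, 2.14 and 2.14 times the median of the pooled list. All 3 summits lay upstream of the annotated start of the gene, outside any annotated exon, at 126 bp from set-16, 447 bp from lin-59 and 566 bp from bet-2. Each thus fell in the promoter window of its own gene, which runs from 1000 bp before a transcript's start to 200 bp after it. Beside this count of 3 of 3, 46.1% of the 76 nuclear reproducible summits and 35.1% of the 2136 nuclear pooled summits were in such a window of a protein-coding gene. Over all nuclear protein-coding genes, 0.22% had a reproducible summit in a promoter window and 1.69% had one in the gene or within 10000 bp. The rule chose the genes for such a region, and nothing is read from these shares. The annotated starts of many worm genes are sites of trans-splicing rather than of transcription, so the distances are to the annotation.

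**Figure D1:**
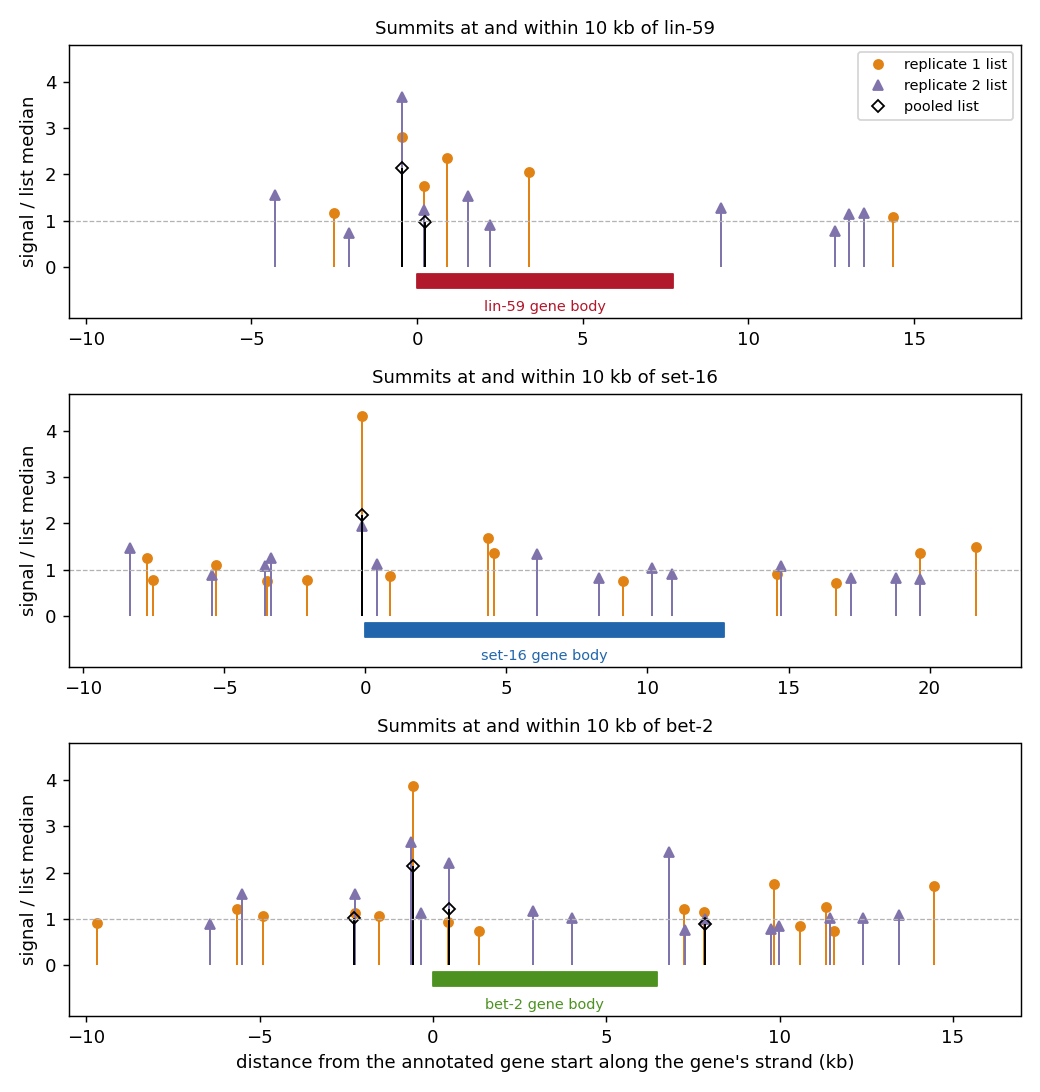
Summits at lin-59, set-16 and bet-2 and within 10 kb of them, by distance from the annotated gene start in kb (x axis) and signal divided by the median of the list (y axis), with 1 stem per summit for the replicate 1, replicate 2 and pooled lists and a bar for the gene body. In each panel the highest stem of each list stands just upstream of the gene start, at 2.81 and 3.68 times the replicate medians for lin-59, 4.32 and 1.95 for set-16, and 3.87 and 2.65 for bet-2.

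At lin-59, the Ash1-related gene, the reproducible region spanned chrI:3721432-3721775, in the intergenic stretch between lin-59 and glh-4, a germline helicase gene that starts 5423 bp away on the other strand. Its signal was 15.3 in replicate 1 (rank 165, q = 0.0424) and 20.8 in replicate 2 (rank 33, q = 0.0118). Each q is the lowest of its list. The summits of the replicates were 3 bp apart, and both replicates had their strongest summit of the lin-59 window at this position. A second pooled summit lay 675 bp away in an intron of lin-59, 228 bp inside the annotated start. It had a pooled signal of 17.4 (rank 1177, q = 0.813). It was matched in both replicates, at rank 1855 in replicate 1 and rank 8070 in replicate 2.

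Most other summits of the lin-59 window were in 1 replicate list only. Replicate 1 had a summit at rank 382 (signal 12.8) in an intron 904 bp inside the gene and another at rank 796 (signal 11.2) in a coding exon 3365 bp inside it. Neither had a replicate 2 summit within 200 bp, the distance that counts as a match throughout. Neither was in the pooled list. Replicate 2 had summits at rank 2989, 4301 bp upstream of lin-59, and at rank 3084, in an intron 1527 bp inside it, and neither was matched in replicate 1. In all, 2 of 6 replicate 1 summits and 2 of 10 replicate 2 summits at lin-59 were matched in the other replicate, or 33.3% and 20%. Over all nuclear summits, 23.1% of replicate 1 and 23.2% of replicate 2 were matched, so few matches were the general case in these lists. Among nuclear summits in the first 1000 ranks, 43.1% of replicate 1 and 45.8% of replicate 2 were matched. The counts at lin-59 include the promoter summit, for which the gene was chosen.

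At set-16, the MLL3/4-related gene, the reproducible region spanned chrIII:13643618-13643961 and lay between a pair of divergent genes. Its summit was 126 bp upstream of set-16 and 220 bp upstream of drr-2, a gene of the minus strand related to the translation factor eIF4H, so it was in the promoter windows of both. The signal was 23.4 in replicate 1 (rank 42, q = 0.0424) and 11.0 in replicate 2 (rank 902, q = 0.209). The replicates thus placed this region far apart in rank, but at the same base: the summit was at position 13643790 in the pooled list and in both replicate lists. This held for 2 of the 76 nuclear reproducible regions.

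The pooled list had no other summit in the set-16 window, and the next one lay 67166 bp away. The replicate lists had 14 summits each in this window of 32722 bp. After the promoter summit, the highest was at rank 2245 in replicate 1 (signal 9.13), in an intron 4359 bp inside set-16. In replicate 2 it was at rank 3882 (signal 8.31), at 8333 bp upstream of set-16. Of the 14 summits, 5 of replicate 1 (35.7%) and 6 of replicate 2 (42.9%) were matched in the other list, beside 23.1% and 23.2% over all nuclear summits. These counts include the promoter summit, for which the gene was chosen. Apart from the promoter summit, no summit inside the set-16 gene body was among those matched.

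At bet-2, the BET family gene, the reproducible region spanned chrX:10568535-10568878. The nearest gene on its other side, F59F5.7, runs towards it on the same strand and ends 1942 bp before the summit. The signal was 21.0 in replicate 1 (rank 56, q = 0.0424) and 15.0 in replicate 2 (rank 152, q = 0.0627). The replicate summits were 66 bp apart.

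The bet-2 window held 3 further pooled summits, with q values of 0.441, 0.762 and 0.941 in order of rank. The strongest of them, with a signal of 21.2 (rank 405), lay in a coding exon 450 bp inside bet-2. The replicates ranked it very differently, at rank 436 in replicate 2 (signal 12.5) and rank 18109 in replicate 1 (signal 5.01). Another, with a signal of 17.8 (rank 1041), lay 2266 bp upstream of bet-2 and was at rank 3080 in replicate 2 and rank 10528 in replicate 1. The last, with a signal of 15.7 (rank 2009), lay in the 5′ UTR of nhx-5, a sodium-proton exchanger gene, 14 bp upstream of its nearest protein-coding transcript start. Replicate 2 also had a summit at rank 228 (signal 13.8) 876 bp upstream of nhx-5, which had no match in replicate 1 and was not in the pooled list. Of the replicate summits at bet-2, 9 of 15 in replicate 1 (60%) and 9 of 16 in replicate 2 (56.2%) were matched in the other list, beside the same 23.1% and 23.2%. The promoter summit is again among those matched. Summits were also dense here, at 5.67 and 6.05 per 10000 bp in replicates 1 and 2, beside 2.99 over the nuclear genome. The part of this density in the matches was not tested, so the shares are a description.

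The 3 genes differed in which replicate ranked them higher. Among the 76 nuclear reproducible regions, set-16 held place 19 by replicate 1 and place 66 by replicate 2. The order was the other way at lin-59, with place 50 by replicate 1 and place 25 by replicate 2. As at set-16, replicate 1 was the higher at bet-2, which held place 30 by replicate 1 and place 54 by replicate 2. The higher rank number was 21.5 times the lower at set-16, 5 times at lin-59 and 2.71 times at bet-2, where the median over the 76 regions was 5.08. The median ranks of the 76 were 84 in replicate 1 and 58 in replicate 2. All 3 regions were within the first 1000 ranks of both replicates, as were 73.7% of the 76. The reproducible list is the 95 regions of highest pooled signal, and the pooled signal joins both replicates. The replicate ranks thus describe where each replicate placed a region and are no independent check. A region near F16A11.13 was in the list at rank 5250 in replicate 1 and rank 14229 in replicate 2. With 2 replicates of 1 group and lists of separate scales, no test of a replicate difference was made.

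**Figure D2:**
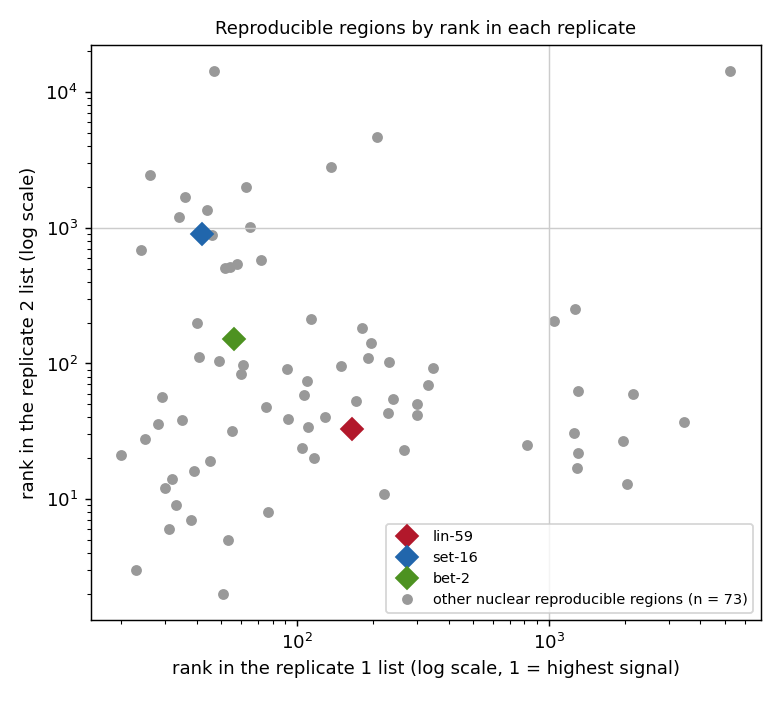
Rank in the replicate 1 list (x axis, log scale) against rank in the replicate 2 list (y axis, log scale) of the 76 nuclear reproducible regions, with lin-59, set-16 and bet-2 as diamonds and the other 73 regions as grey points. The set-16 point (42 and 902) lies close to the line at rank 1000 for replicate 2, and the lin-59 (165 and 33) and bet-2 (56 and 152) points lie within the main cloud.

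The windows of the 3 genes, the gene body plus 10000 bp on either side, held different numbers of summits. The pooled list had 2 summits at lin-59, 1 at set-16 and 4 at bet-2, where the median nuclear protein-coding gene had 0 and 34.7% of the genes had at least 1. As many as at bet-2 or more were found at 0.981% of all genes and at 0.989% of the 2731 on X. For lin-59 this share was 10.3%. Replicate 1 had 6, 14 and 15 summits at lin-59, set-16 and bet-2, and replicate 2 had 10, 14 and 16, where the median gene had 7 in each list. The genes are long, at 7709, 12722 and 6453 bp against a median of 2027 bp, so their windows are wider than those of most genes. Per 10000 bp, replicate 1 had 2.17 summits at lin-59, 4.28 at set-16 and 5.67 at bet-2, beside 2.99 over the nuclear genome. Replicate 2 had 3.61, 4.28 and 6.05, beside 2.99. The counts at set-16 and bet-2 were thus above the genome's density in both replicates, and lin-59 was below it in replicate 1 and above it in replicate 2. The pooled list had 0.722, 0.306 and 1.51 per 10000 bp at lin-59, set-16 and bet-2, beside 0.213 over the nuclear genome. These pooled values include the region for which each gene was chosen.

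**Figure D3:**
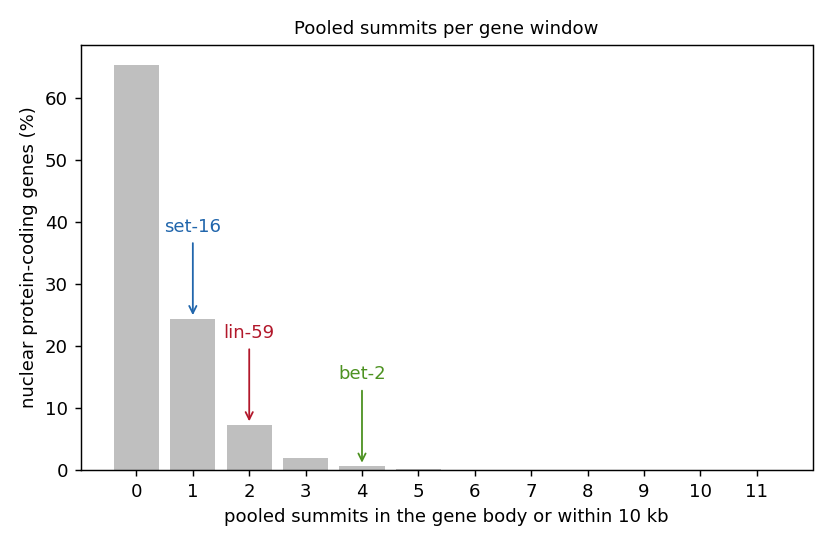
Share of nuclear protein-coding genes in percent (y axis) by the number of pooled summits in the gene body or within 10 kb (x axis), with arrows at the counts of lin-59 (2), set-16 (1) and bet-2 (4). Most genes, 65.3%, had 0 summits, and 0.631% had 4 like bet-2.

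Each of the 3 summit windows held a short GA-rich run, a kind also frequent at the other reproducible summits. Of 6 motifs searched within 100 bp on both strands, GAGAGA and AGAGAC were present at all 3 summits, beside 55.3% and 39.5% of the 76 nuclear reproducible summits. The 2 motifs overlap by 5 letters wherever they form GAGAGAC, as they did at each of the 3 genes. GAGAGA was in 22.3% of nuclear pooled summit windows, in 9.99% of windows of the same width tiling the nuclear genome and in 10.9% of windows centred 400 bp upstream of protein-coding genes. For AGAGAC these shares were 14.5%, 6.64% and 7.01%. The longer run AGAGAGAC was noted when the 3 windows were compared and was at 12 of the 76 summits, or 15.8%, with the 3 genes among them. It was in 2.62% of pooled windows, 0.592% of tiling windows and 0.691% of upstream windows. Since it was picked from these windows, its presence in all 3 is a description.

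The position of AGAGAGAC was not the same. It began 81 bp before the set-16 summit and 79 bp before the lin-59 summit on the plus strand, and it ran from 33 to 40 bp after the bet-2 summit on the minus strand. The set-16 window held a second AGAGAC 12 to 7 bp before the summit, as seen in the printed sequence. Along the direction of transcription the run was on the strand of the gene at set-16 and on the opposite strand at lin-59 and bet-2. The other 4 motifs were absent from all 3 windows. They were GCGCGA, at 25% of the 76 summits, TGACAG, the core bound by Meis proteins, at 13.2%, the composite Pbx and Meis site TGATTGAC at 0%, and TGATNNAT, bound by Pbx and Hox proteins together, at 14.5%. In pooled windows they were at 4.26%, 8.66%, 1.12% and 16.4%, and in tiling windows at 2.28%, 6.77%, 0.566% and 15.4%.

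The 3 windows were rich in G and C. GC content was 55.7% at lin-59, 52.7% at set-16 and 56.7% at bet-2, where the median was 46.0% over the 76 nuclear reproducible summits, 37.8% over pooled summits and 33.8% over windows upstream of protein-coding genes. Of the 76, 12 had a GC content at least as high as lin-59, 18 as set-16 and 4 as bet-2, each count including the gene itself. Of the upstream windows 0.516%, 1.33% and 0.406% were as high as lin-59, set-16 and bet-2. CG steps numbered 14, 15 and 12. The part of GC content in the signal was not tested. All 166 stretches of 36 bp in each of the 3 windows occurred once in the genome, as they did at 72 of the 76 summits.

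**Figure D4:**
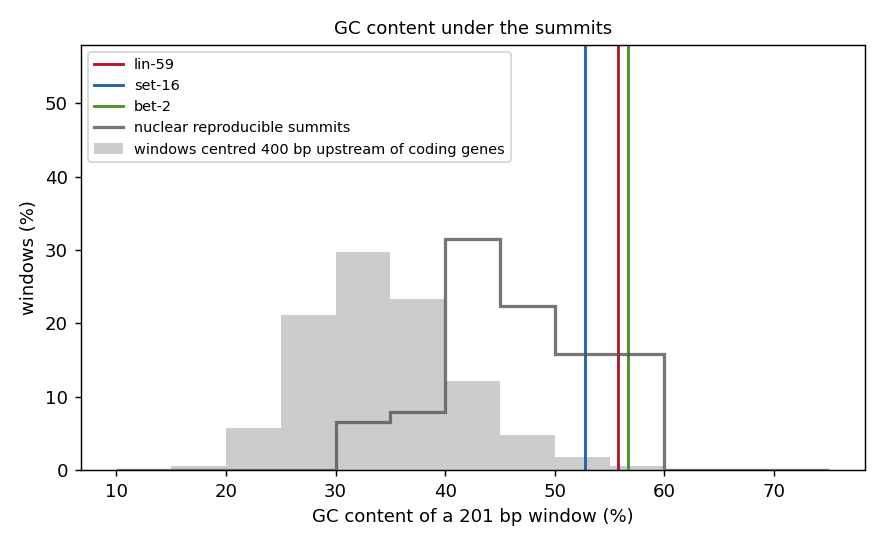
Share of windows in percent (y axis) by GC content of a 201 bp window in bins of 5 percentage points (x axis), for the nuclear reproducible summits (outline) and for windows centred 400 bp upstream of protein-coding genes (filled), with vertical lines at lin-59, set-16 and bet-2. The 3 lines stand between 52.7% and 56.7%, above the medians of 46.0% and 33.8%.

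A list of 84 chromatin regulator symbols was searched for regions at other genes of the same kind, and 82 were found in the annotation. Without the 3 genes, 32 of the 79 others, or 40.5%, had a pooled summit in the gene or within 10000 bp, beside 34.7% of all nuclear protein-coding genes. In a promoter window 8 of 79, or 10.1%, had one, beside 4.14% of all genes. The pooled list includes background, so these summits are not all binding sites. The genes of the whole list had a median length of 4795 bp, longer than the 2027 bp of all genes, and the part of gene length in these counts was not tested. By group, without the 3 genes, a pooled summit within 10000 bp was found at 2 of 8 Polycomb and H3K27 genes, 5 of 8 heterochromatin genes and 4 of 7 acetylation and BET genes. It was found at 5 of 12 deacetylase, 4 of 7 demethylase, 5 of 19 remodelling and 1 of 7 other SET domain genes. Of the 79 others, 0 had a reproducible summit in a promoter window, beside 0.22% of all nuclear protein-coding genes. Within 10000 bp 2 of them, or 2.53%, had one, beside 1.69% of all genes, and nothing is read from these counts. The 2 genes were hpl-2, which encodes a heterochromatin protein of the HP1 family, and sin-3, which encodes the scaffold of a histone deacetylase complex. The region within reach of hpl-2 (signal 47.1, rank 33) lay 3737 bp upstream of it and 40 bp upstream of tasp-1. The region within reach of sin-3 (signal 36.8, rank 57) lay beyond its end and was nearest to the start of F02E9.5. The sin-3 gene was named after its values were seen.

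The values of the closest relatives of the 3 genes in the list are given as a description. The 3 genes were chosen for regions among the 95 highest pooled signals, so a gene without such a region has a lower signal by that choice. Of the 9 other genes of H3K4 methyltransferase complexes, 5 had a pooled summit within reach. Among them were utx-1, the demethylase partner of set-16, with its highest at signal 19.2 (rank 681), 7834 bp upstream, and dpy-30 at 19.6 (rank 599). In a promoter window 1 of the 9 had a pooled summit, ash-2 at signal 15.8 (rank 1921). Of the other H3K36 methyltransferase genes, met-1 had no pooled summit within reach and mes-4 had 1 at signal 15.7 (rank 1980). The other BET family gene in the list, bet-1, had 1 at signal 17.9 (rank 1024), 2859 bp upstream of its start. Among acetylation genes cbp-1, the worm p300/CBP acetyltransferase gene, had a promoter summit at signal 29.1 (rank 117), outside the reproducible list, with rank 26 in replicate 2 and rank 4418 in replicate 1. Apart from hpl-2, these genes were singled out after their values were seen. At utx-1, dpy-30, mes-4, bet-1 and cbp-1 the summit given was nearest to the annotated start of another gene.

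**Figure D5:**
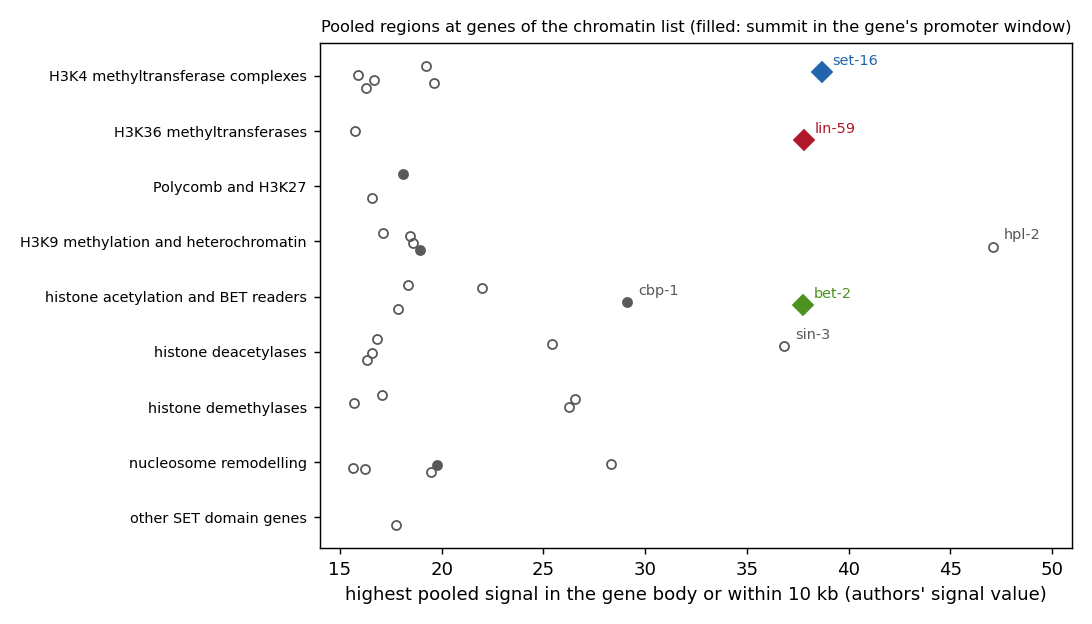
Highest pooled signal in the gene body or within 10 kb (x axis, the authors' signal value) for each gene of the chromatin list that had a pooled summit there, by group (y axis). Diamonds are lin-59, set-16 and bet-2, circles are other genes, and filled markers have that summit in a promoter window of the gene; the 3 diamonds (37.8 to 38.7) are filled, and the hpl-2 (47.1) and sin-3 (36.8) circles are open.

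By the distance between log10 signals in the 2 replicate lists, the regions most like that of set-16 were at F48G7.4 (0.00920) and daf-5 (0.0316), a gene of dauer TGF-beta signalling. The F48G7.4 region had signals of 23.0 in replicate 1 and 11.1 in replicate 2, and the daf-5 region 23.2 and 10.3. Those most like lin-59 were at C17C3.23 (0.0339), with 16.4 and 20.2, and at F02E9.5 (0.0385), with 14.1 and 19.9. Those most like bet-2 were at F45D3.14 (0.0430), with 20.6 and 16.5, and at F19H6.5 (0.0495), with 22.7 and 16.3. None of the 3 genes was among the closest regions of another. The distances rest on 2 values per region, and each name is that of the gene with the nearest start.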

How the data were processed

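ChIP-seq against UNC-62 was analysed in 2 replicates of 1 group, from 4 region lists on build ce11. Per the labels and the deposited file lists, the authors called regions in each replicate and in both together against a control, which was not used here, and then applied IDR. Which aligner and caller they ran is not given in the sources used here. The signal (column 7) and the −log10 q (column 9, printed here also as q) are the authors' deposited values, and the scale of the signal is not stated. The lists on ce10 were not used, since genes were placed on ce11 only.

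Positions are 1-based. Genes came from Ensembl release 115 (WBcel235), sequence from RefSeq WBcel235, and no region or gene ran past a chromosome's end. Summits matched within 200 bp, taking the nearest. Motifs were sought in windows of 201 bp. Sequence of lin-59 is not shown here. No p-value is given, since the genes were chosen for their regions. The members, the gene list and the motifs were chosen with earlier results of these data known. The windows upstream of protein-coding genes, the comparison within X and AGAGAGAC were added after the data were seen. Named were the 3 genes, genes at pooled summits in their windows, the 4 genes of the chromatin list with the highest pooled signals (hpl-2 and the 3 genes themselves), and the genes at the 2 regions closest in replicate signal to each member's. All other genes were named after their values were seen. Counting, matching and motif steps were tested on simulated data. Python 3.11.15, numpy 2.4.6 and matplotlib 3.10.9 were used.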

Additional observations from a re-analysis of the deposited data

How the results depend on the processing

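All 3 promoter regions were matched in both replicates, also with summits within 100 or 500 bp, any overlap, or the first 1000 ranks of each replicate. Every nuclear reproducible region had a summit within 200 bp in both replicate lists, some of them at low ranks. The choice of the genes thus largely fixes this count, which says nothing of stability. With a replicate left out, the 3 matches are to the other replicate alone. Left out in turn, the replicates gave a median rank of 56 to 152 for the 3 regions, beside 104 with both. The number in a promoter window was 2 with 500 bp upstream to 100 bp downstream, where bet-2 was lost, and 3 in the wider window. The pooled summits at the 3 genes numbered 7 within 10000 or 5000 bp and 8 within 20000 bp, but 4 among the 1000 regions of highest pooled signal. GAGAGA was at 3 of 3 summits within 100 or 250 bp and at 1 of 3 within 50 bp, and AGAGAGAC, added after the data were seen, at 3 within 100 bp. Of the chromatin list, 35 genes had a pooled summit within 10000 bp, 24 within 5000 bp and 51 within 20000 bp, against 11 in promoter windows and 20 with the 1000 highest regions alone. No paired analysis was possible because there is 1 group. Depth is unknown, and a match missing from a replicate list is not shown to be absent from the sample.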

Other observations

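Reproducible regions also lay near 3 genes tied to chromatin that the fixed list did not hold, singled out here after the nearest genes were seen. The region at chrIII:10759095-10759438 (signal 47.1) had its summit 40 bp upstream of tasp-1. This gene is the relative of mammalian taspase 1, a protease that cleaves some MLL proteins, and no link to set-16 is shown here. The tasp-1 region is the same that was within reach of hpl-2, and was at rank 45 in replicate 1 and rank 19 in replicate 2. The region 663 bp upstream of zfp-1, the relative of human AF10, was at pooled rank 80 and at rank 54 in replicate 1 and rank 510 in replicate 2. A region at pooled rank 32 lay 1032 bp inside let-526, the nearest protein-coding start, which encodes an ARID subunit of the SWI/SNF remodelling complex, with rank 24 in replicate 1 and rank 683 in replicate 2. No test was made of whether chromatin genes are more frequent among the 76 nuclear regions.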
